A study of Arabidopsis thaliana with 12 samples.

Results

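The 6 wild-type arrays of a study of 12 Affymetrix ATH1 arrays were taken by their titles, Col-3 or Col-0, and described as a baseline of root gene expression. Each array held root RNA of Arabidopsis thaliana at 7 days of age, and 3 arrays came from Col-3, stock code N908, and 3 from Col-0. Col-3 and Col-0 are stocks of the Columbia accession, and no transgene or mutation is given for either. Before germination the seed spent 2 days in the cold at 4 °C. The seedlings were then grown at 24 °C on 1% agar with Murashige and Skoog salts at 0.5 strength, under a day of 16 h and a night of 8 h. The other arrays of the study came from ara1OX, a Col-0 line carrying 35S:Ara1YFP under the constitutive 35S promoter, and from ara1/2mut, a Col-3 line altered in both ARABIDILLO genes. They are used here only where named. The labels number the arrays of each stock, but say neither how many seedlings gave each RNA nor whether the seedlings came from separate plates.

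A seedling root takes up water and ions, anchors the plant and meets soil organisms. From the outside inwards it has an epidermis with root hairs, a cortex, an endodermis that seals the vascular cylinder, and the vascular tissue itself, all supplied by the dividing cells of the tip. Arabidopsis roots are also known for ER bodies, compartments of the endoplasmic reticulum filled with a β-glucosidase that is thought to act against attackers when cells break. The array reports all of these cells together, so that fewer cells of a type and less RNA per cell cannot be told apart.

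Values are MAS5 signals, intensities on a linear scale on which every array had a trimmed mean of 100.01. A probe set is a group of short probes read as 1 value, and its signal depends on how well its probes bind as well as on the amount of transcript. The order of signals given here is therefore an order of signals, not of transcript numbers. The spread of a probe set is the standard deviation (SD) of its log2 signal over the 6 arrays. No difference between Col-3 and Col-0 was tested, and the values of both stocks are given as a description. Of the probe sets with 1 gene that could be matched to a gene table, 1689 have a symbol or readable name and 11747 have a locus code alone. Genes known here only by such a code are given without a role.

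The labelled tissue was checked against 12 lists of cell type markers holding 82 genes, of which 6 have a probe set under their own name and 2, both of the cortex list, under a locus code. EXPA7 and EXPA18 encode expansins of root hairs. EXPA7 gave 232, 159 and 224 in Col-3 and 204, 221 and 205 in Col-0, and EXPA18 gave 207, 187 and 207 in Col-3 and 227, 238 and 318 in Col-0. Both were above a signal of 100 on all 6 arrays. GSO1, a receptor kinase of the endodermis also called SGN3, gave 140.2, 175 and 143 in Col-3 and 170.1, 176 and 226 in Col-0. The loci listed for the cortex were lower. AT1G09750 gave 68.7, 69.4 and 60.1 in Col-3 and 62.4, 58.7 and 55.1 in Col-0. AT1G62500 gave 18.9, 15.0 and 11.1 in Col-3 and 24.3, 20.1 and 28.7 in Col-0, near the control level on every array and lower in Col-3. Measured were thus 2 of 8 root hair markers and 1 of 10 endodermis markers, and these lay above 100 on every array. Both cortex loci lay below it. Signals of different probe sets do not rank the cell types. Of 21 listed markers of green shoot tissue only 3 have a probe set, and none of these 3 had a mean of 100. Such a mean was reached by 28.27% of all probe sets. RCA, which encodes the activase of the carbon-fixing enzyme Rubisco, gave 92.9, 71.3 and 126 in Col-3 and 65.8, 88.0 and 127 in Col-0. LHCB4.1, a light-harvesting protein, gave 95.5, 89.8 and 113 in Col-3 and 86.4, 118 and 93.9 in Col-0. LHCB4.2, its close relative, gave 22.1, 16.7 and 33.8 in Col-3 and 11.3, 27.2 and 1.9 in Col-0, and its values on Col-0 replicates 1 and 3 lay under 15.8, the highest signal of 27 Bacillus control probe sets on these arrays. Signal of RCA and LHCB4.1 was thus present in these root samples on every array, and whether some shoot tissue was included was not tested. For 8 of the 12 lists, among them those of stele, xylem, phloem, root cap and meristem, no member was matched to a probe set, so the cell types of these lists were not analysed here.

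**Figure D1:**
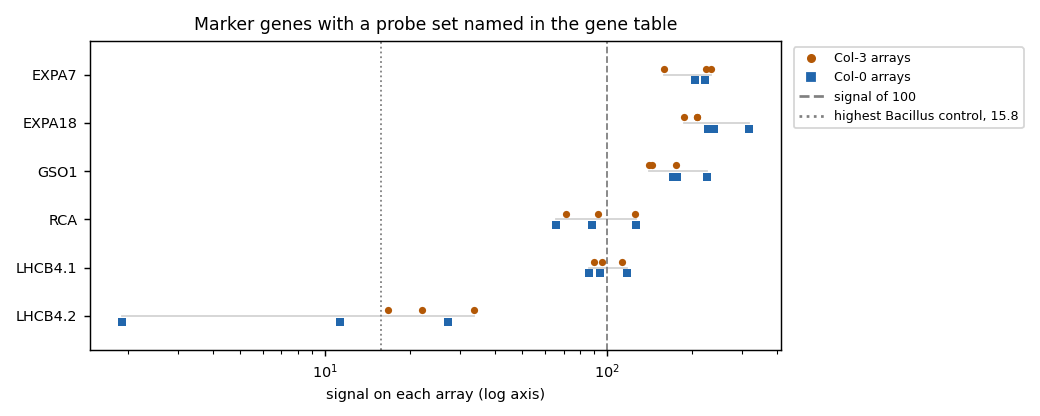
Signal of 6 marker genes on each wild-type array, on a log axis, with Col-3 arrays as circles and Col-0 arrays as squares. The 2 root hair expansins and GSO1 lie above 100 on every array, RCA and LHCB4.1 lie on both sides of 100, and LHCB4.2 lies lowest, with its lowest array at 1.9.

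The 6 arrays resembled each other closely. Between 6390 and 6598 probe sets reached a signal of 100 on an array, and the median signal ran from 37.7 to 42.6. Across probe sets, log2 signals of 2 arrays of the same stock correlated at r = 0.907 to 0.936 (6 pairs), and those of arrays of different stocks at 0.901 to 0.932 (9 pairs). These pairs share arrays and the same probes, so the ranges are descriptions. The spiked hybridization controls had mean log2 signals of 7.82, 8.50 and 8.03 on the Col-3 arrays and 8.33, 8.39 and 8.91 on the Col-0 arrays. The ratio of 3' to 5' GAPDH signal, a sign of RNA integrity, ran from 0.753 to 0.984 in Col-3 and from 0.879 to 1.14 in Col-0. The same ratio for actin was far higher, from 10.7 to 11.6 in Col-3 and from 13.3 to 17.1 in Col-0. The part of RNA integrity in the signals was not tested. The probe set for 25S ribosomal RNA varied far more, with 563, 30.0 and 169 in Col-3 and 167, 15.6 and 184 in Col-0.

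Mean signals over the 6 arrays covered a wide range. Of 22746 probe sets that are not controls, 6430 (28.27%) had a mean signal of at least 100, 1250 (5.50%) of at least 500, 532 (2.34%) of at least 1000 and 162 (0.71%) of at least 2000. The median was 38.4 and the 99th percentile 1636. On every one of the 6 arrays 13370 probe sets (58.78%) lay above the highest Bacillus control. Few probe sets held much of the signal: the 40 brightest carried 5.67% of the summed signal and the 1000 brightest 44.18%. Of those 40, 28 are unnamed here, 2 have several genes and 10 have 1 gene. The genes described next are the 40 brightest among probe sets with 1 gene, with mean signals from 2210 to 4881. The last of them, AT1G51200, had 2209.8, and the next, AT2G34480, had 2207.3, so the edge of the list is arbitrary. Only 14 of the 40 have a symbol or name.

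The brightest named gene was MT1C, a metallothionein, one of the small cysteine-rich proteins that bind copper and zinc. Its signal was 4551, 5402 and 4645 on the Col-3 arrays and 4445, 4682 and 5689 on the Col-0 arrays. PYK10, the β-glucosidase of ER bodies, gave 4447, 4760.4 and 4758 in Col-3 and 4080.3, 4536 and 5555 in Col-0. The stocks overlapped for both genes. JAL33, a jacalin-related lectin that is found in complexes with PYK10, gave 4011, 4318 and 4956 in Col-3 and 3799.7, 4432 and 4690.1 in Col-0. JAL34, a lectin of the same family, gave 3271, 3629 and 3877 in Col-3 and 3461, 2906 and 3267 in Col-0. GAPC2, the cytosolic glyceraldehyde-3-phosphate dehydrogenase of glycolysis, gave 3144, 3933 and 3841 in Col-3 and 4534, 3636 and 4844 in Col-0. The lowest value of these 3 genes was 2905.5, for JAL34 on Col-0 replicate 2.

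The other named genes among the 40 have varied roles. PRXR1 encodes a peroxidase, an enzyme that uses hydrogen peroxide to oxidise wall components among other substrates, and its signal ran from 2879 to 3699.9 (median 3377). SAMDC, S-adenosylmethionine decarboxylase of polyamine synthesis, ran from 2737 to 3666 (median 3023). APA1, an aspartic protease, ran from 2627 to 3069 (median 2928), and OSM34, an osmotin-like defence protein, from 2527 to 2935 (median 2766). AT1G54410, which the gene table lists as the 11-kDa dehydrin HIRD11, ran from 2500.3 to 3389 (median 3028). Dehydrins bind water-stressed proteins and membranes, and this one is also known to bind metal ions. The cytosolic isocitrate dehydrogenase cICDH ran from 2364 to 3177 (median 2706), the triosephosphate isomerase TPI from 2286 to 3029 (median 2446), and cytochrome c, CYTC-1, from 2013 to 2419.9 (median 2251). UBC28, an enzyme that passes ubiquitin to target proteins, was the least even of these, from 1809.5 to 2994 (median 2751) with the lowest value on Col-3 replicate 3. Of the genes with a locus code alone, AT3G22240 and AT3G48140 were the brightest, with signals from 4028 to 5124 (median 4947) and from 3896 to 4644 (median 4427).

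**Figure D2:**
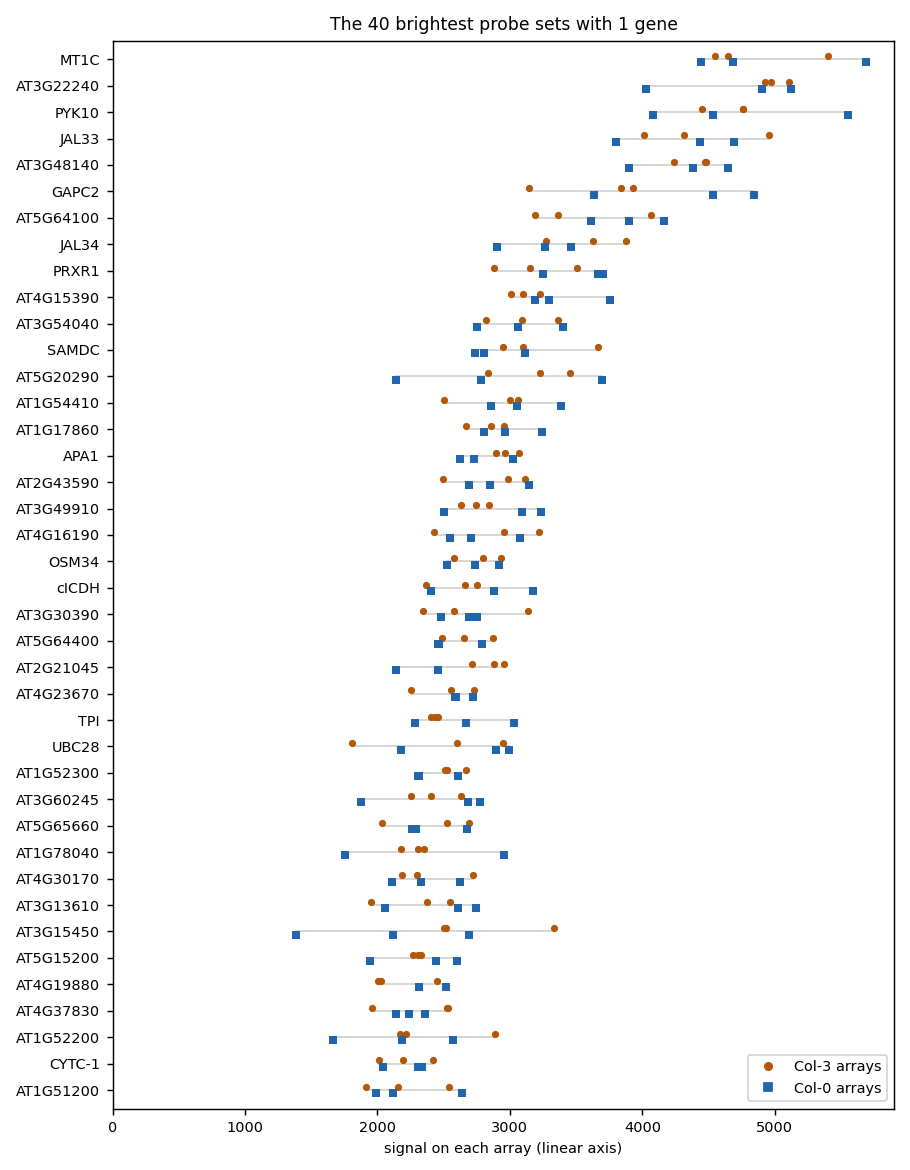
Signal on each wild-type array of the 40 brightest probe sets with 1 gene, ordered by mean log2 signal, on a linear axis from 0, with Col-3 arrays as circles and Col-0 arrays as squares. Most rows are narrow and mix both stocks, and AT3G15450 has the widest row, from 1384.5 to 3337.

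The spread of these 40 genes was small, as it was for most probe sets of high signal. Their SD ran from 0.088 to 0.428 on the log2 scale with a median of 0.145, against a median of 0.169 over all probe sets with a mean of at least 1000 and of 0.202 over those of at least 100. The least steady was AT3G15450, with 2504, 3337 and 2520.1 in Col-3 and 2690.3, 2117 and 1384 in Col-0. Its lowest value came from Col-0 replicate 3 and its highest from Col-3 replicate 2. For 1 of the 40, AT2G21045, the arrays of the stocks did not overlap, with 2716, 2879.5 and 2953 in Col-3 and 2456, 2457 and 2138 in Col-0. Among all 6430 probe sets with a mean of at least 100 the stocks did not overlap in 14.4%.

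To describe levels by function, 56 gene families with 673 probe sets were formed from gene symbols and names, and grouped into 14 roles. A family is called bright here where its median member lay at or above the 80th percentile of all probe sets, a signal of 149.0. By this measure 14 families were bright. All 3 families grouped as energy were among them: glycolysis with 3 probe sets, the citrate cycle and acetyl-CoA supply, and the aldehyde dehydrogenases. So were 5 of 10 families of the vacuole, ER body and secretion, and 2 of 6 of redox and detoxification. The rest were 1 each of the cytoskeleton, ubiquitin, stress and transcription factor families. None of the 6 cell wall, 4 transport, 4 peptide and signalling, 3 auxin, 4 RNA and 4 plastid families was bright. The chaperone family was not bright either. Family members are not independent, since related genes can share probe sequence. The counts of members at 100 or more given below stand beside 28.27% of all probe sets at that level.

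**Figure D3:**
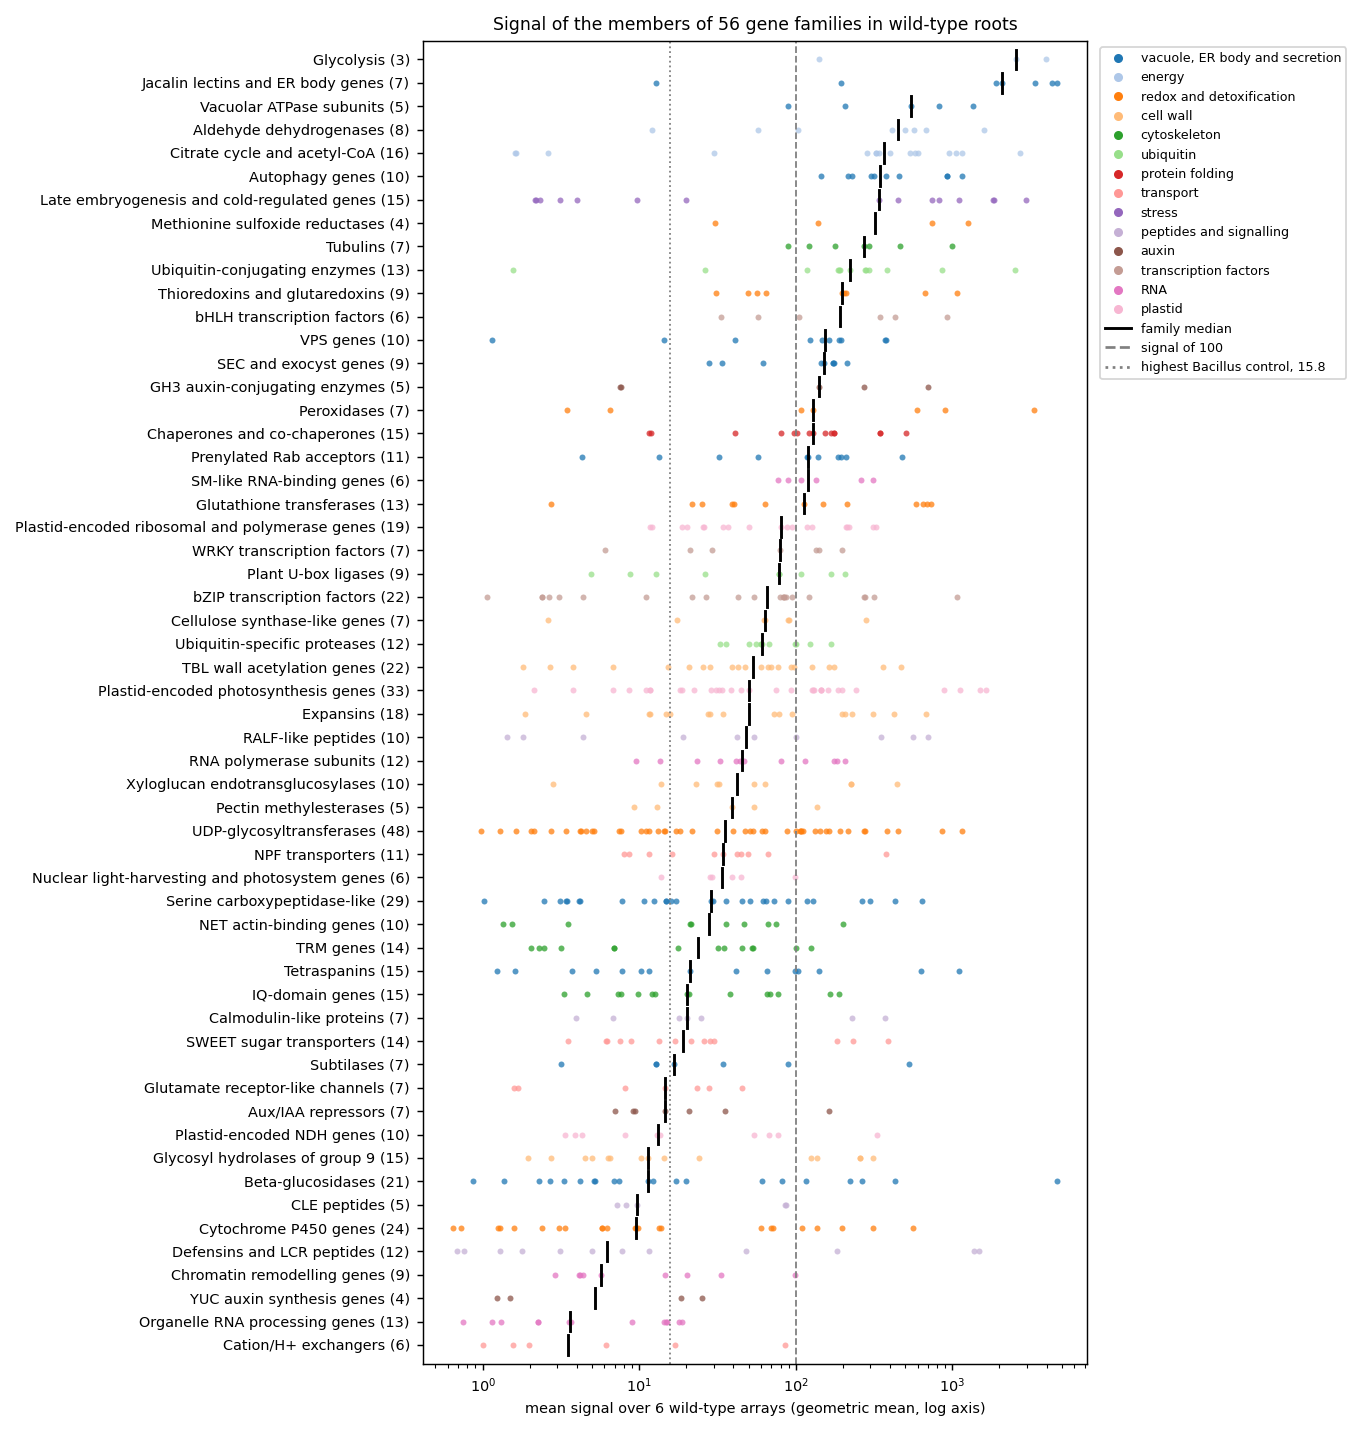
Mean signal of each member (points, coloured by role) of 56 gene families on a log axis, with the family median as a black bar, families ordered by it and the number of probe sets in brackets. Glycolysis and the jacalin and ER body genes stand at the top, with medians above 2000, and the cation/H+ exchangers at the bottom, and many families hold members on both sides of the dashed line at 100.

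The ER body genes had the second highest median percentile after glycolysis, 99.3, and they form a known pathway in roots. NAI1 is the transcription factor that ER body formation depends on, and NAI2 is a protein of the ER body that depends on NAI1. NAI2 gave 1715, 2417 and 1997 in Col-3 and 2231, 1948 and 2167 in Col-0. NAI1 gave 157, 151 and 179 in Col-3 and 232, 204 and 267 in Col-0, lower on every Col-3 array than on any Col-0 array. The lectin JAL22 gave 1847, 1939.9 and 1924 in Col-3 and 1826, 1913 and 1956 in Col-0, and its SD of 0.04 was the smallest of any probe set with 1 gene and a mean of 1000 or more. JAL23, another lectin of the group, was near the control level, with signals from 7.5 to 16.8 (median 14.5). Of the 7 members 6 had a mean of at least 100. PYK10 belongs to the β-glucosidases too, and there it stood alone. Of the 21 β-glucosidase probe sets 5 reached a mean of 100. BGLU16 ran from 357 to 573 (median 397), BGLU15 from 224 to 330.5 (median 259.8) and BGLU46, one of the enzymes that free monolignols for lignin, from 165 to 286 (median 218). The family median was 11.4, below the highest Bacillus control.

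Genes of the vacuole and of membrane traffic were present at middling to high signals. All 10 autophagy probe sets had a mean of at least 100. Apart from ATG3 all of them are of ATG8 genes, so they stand for a small part of the autophagy genes. The ATG8 proteins coat the membranes that enclose cargo on its way to the vacuole, and the brightest of these genes were APG8H with 926 to 1323 (median 1195), APG8A with 796 to 1083 (median 935) and ATG8F with 756 to 1158 (median 923). ATG3, the enzyme that couples ATG8 to lipid, ran from 283 to 336 (median 322). On Col-0 replicate 3 the signal was the lowest of the 6 arrays for 5 of the 10, and it was the lowest there for 21.5% of all probe sets at this level. The vacuolar proton pump was represented by 5 probe sets, 4 of them at 100 or more. VHA-A3, a membrane subunit of the pump at the vacuole, ran from 476 to 638 (median 538), and VHA-A1, its counterpart in the trans-Golgi network, from 67.0 to 111 (median 93.4). VPS genes, which sort membrane proteins for degradation, reached 100 in 7 of 10 probe sets, led by VPS2.1 with 341 to 408 (median 382). Of 9 SEC and exocyst genes, which tether and fuse secretory vesicles, 6 did, with SEC22 from 188 to 247 (median 216) and SEC6 from 146 to 211 (median 169.9). In 3 further families some members reached 100, as 28.27% of all probe sets did. TET8 and TET3, tetraspanins of the plasma membrane, ran from 995 to 1397 (median 1072) and from 576 to 659.6 (median 651). Of the 15 tetraspanins 4 reached 100. Among 29 serine carboxypeptidase-like genes 6 reached 100, led by SCPL49 with 616 to 687 (median 639). Among 7 subtilases, which are secreted proteases, only SBT4.12 did, from 419 to 636 (median 544).

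All 3 families grouped as energy were bright by their median member. The aldehyde dehydrogenases were placed in this group, although the roles given for them below are other ones. Glycolysis had 3 named members. GAPC2 and TPI have been given above, and ENOC, an enolase gene, gave 172, 113 and 195 in Col-3 and 148, 108 and 126 in Col-0. Of 16 probe sets of the citrate cycle and acetyl-CoA supply 12 reached 100, and their family median was 368. After cICDH the brightest were IDH-V, a subunit of the mitochondrial isocitrate dehydrogenase, from 1021 to 1292 (median 1154), and MAB1, a subunit of pyruvate dehydrogenase, from 913 to 1261 (median 1045). Succinate dehydrogenase, which links the cycle to respiration, had 4 named genes of unequal signal. SDH2-1 ran from 752 to 1164 (median 977) on the brighter of its probe sets and from 0.6 to 10.3 on the other, SDH1-1 from 498 to 631 (median 598), SDH2-2 from 338 to 473 (median 396) and SDH1-2 from 15.9 to 43.4 (median 34.3). ACLA-1 and ACLA-3, subunits of the cytosolic enzyme that makes acetyl-CoA from citrate, ran from 545 to 675 (median 602) and from 465 to 614 (median 527). Of 8 aldehyde dehydrogenases 6 reached 100. ALDH2C4, which makes ferulic and sinapic acids, led with 1423, 1616 and 1659 in Col-3 and 1687, 1612 and 1522 in Col-0. ALDH10A8 and ALDH10A9, which oxidise aminoaldehydes, ran from 369 to 498 (median 399.9) and from 422 to 603 (median 483), and ALDH11A3 stayed at or near the control level, from 3.2 to 34.0 (median 11.9).

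Redox and detoxification genes were mixed. Methionine sulfoxide reductases repair oxidised methionine, and 3 of 4 reached 100, with MSRB5 from 1074 to 1519 (median 1236) and MSRB9 from 622 to 839.9 (median 768). The glutaredoxin gene GRXC2 ran from 839.5 to 1470.2 (median 1054). Of 13 glutathione transferases, which attach glutathione to toxic compounds, 7 reached 100. Their 4 brightest were GSTU22 with 648 to 815 (median 735), GSTU25 with 517 to 931 (median 686), GSTU27 with 541 to 887 (median 635) and GSTU26 with 428 to 739 (median 621). All 4 belong to the plant-specific tau class, as do most of the 13. The peroxidases had 5 of 7 probe sets at 100 or more. AT5G64120, listed as peroxidase 71, ran from 784 to 1327 (median 833), and AT5G66390, listed as peroxidase 72, from 469.6 to 749 (median 608). PRX52 stayed under the control level, from 1.6 to 14.2 (median 8.5).

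Enzymes of secondary metabolism ranged from bright to dim. Of 48 UDP-glycosyltransferase probe sets 16 reached 100, where 28.27% of all probe sets did. The family median was 35.2, near the 38.4 of all probe sets. UGT72E1 and UGT72E2, which glucosylate lignin precursors, were the brightest, with 1129, 1137 and 1146 in Col-3 and 1430.3, 1043 and 1081 in Col-0 for UGT72E1 and 876, 792 and 811 in Col-3 and 905, 776 and 999 in Col-0 for UGT72E2. UGT76B1, known for glucosylating the immune regulator isoleucic acid, ran from 345 to 592 (median 443), and UGT74B1, an enzyme of glucosinolate synthesis, from 236 to 344 (median 268). Among 24 cytochrome P450 genes 5 reached 100. All 5 are of the CYP71B group, but so are members under 100, among them CYP71B34, CYP71B28 and the dimmest of the family, CYP71B21. CYP71B6 led with 479 to 662 (median 548), followed by CYP71B23 with 240.0 to 363 (median 312).

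No cell wall family was bright as a whole, although each had at least 1 member at 100 or more. Expansins loosen the wall during growth, and 6 of 18 reached 100. EXPA4 gave 761, 628 and 641 in Col-3 and 631, 616 and 802 in Col-0, and EXPA15 gave 261, 374 and 295 in Col-3 and 297, 314 and 328 in Col-0. EXPB3, of the β class, ran from 360.3 to 476 (median 435). The root hair expansins EXPA7 and EXPA18, given above, belong to these 6. CSLD2, a cellulose synthase-like gene that root hair growth needs, was the only one of 7 such probe sets at 100, from 232 to 349 (median 288). XTH genes encode enzymes that cut and rejoin xyloglucan chains. XTH18 gave 429.5, 392 and 291 in Col-3 and 470.5, 534 and 612 in Col-0, and XTH19 ran from 163 to 320.5 (median 235). EXGT-A3, the other member at this level, ran from 196 to 268 (median 222). The endoglucanases GH9C2 and GH9C1 ran from 241 to 405 (median 297) and from 191 to 313 (median 268). Of the 15 probe sets of their family 5 reached 100, near the 28.27% of all probe sets. TBL genes add acetyl groups to wall polysaccharides, and 5 of 22 reached 100, led by TBL36 with 407 to 567 (median 450.4). PMEPCRF was the only one of 5 pectin methylesterases that did, from 119 to 159.8 (median 137).

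Tubulins were the one bright cytoskeleton family, with 6 of 7 at 100 or more. TUA6 ran from 803 to 1176 (median 1024) and TUB9 from 403 to 536 (median 466). TUA1, an α-tubulin best known from pollen, was the dimmest, from 70.4 to 116 (median 87.5). The actin-binding NET, microtubule-related TRM and calmodulin-binding IQD families had 1 of 10, 2 of 14 and 2 of 15 members at 100. Of 13 ubiquitin-conjugating enzymes 11 reached 100, against 2 of 12 ubiquitin-specific proteases and 3 of 9 U-box ligases. The U-box ligases at this level were PUB22, PUB23 and PUB24, a trio that dampens immune signalling, and PUB22 ran from 162 to 255 (median 210.3).

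Transporters with a name were few and mostly dim. Among the 14 SWEET sugar carriers 3 reached 100: SWEET17 with 393, 387 and 385 in Col-3 and 379, 442 and 364 in Col-0, SWEET16 with 207, 269 and 277 in Col-3 and 255, 234 and 170.3 in Col-0 and SWEET2 with 176, 233 and 229.5 in Col-3 and 154, 199.6 and 132 in Col-0. These 3 are known as carriers of the vacuolar membrane in roots. Of 11 members of the NPF family, which moves nitrate and other small molecules, only GTR2, a glucosinolate importer, reached 100, from 301 to 440.1 (median 390.3). Its relative GTR1 ran from 56.5 to 81.0 (median 65.8). No cation/H+ exchanger of 6 and no glutamate receptor-like channel of 7 had a mean of 100, and CHX16 was the brightest of the exchangers, from 73.1 to 104 (median 85.6). None of 19 nutrient uptake genes, 19 aquaporins and 6 auxin carriers listed has a named probe set, so these groups were not analysed here.

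Genes tied to water and cold stress were divided between bright members and members near the control level. Of 15 late embryogenesis and cold-regulated probe sets 8 reached 100 and 6 had a mean under the highest Bacillus control. COR47, a dehydrin induced by cold, gave 1604, 1634 and 1556 in Col-3 and 2062, 1888 and 2288 in Col-0. LTI30, another dehydrin, gave 670.1, 598 and 747 in Col-3 and 741, 849 and 847 in Col-0, and DI19 ran from 1603 to 2114 (median 1859). AT2G44060, listed as LEA26, was among the steadiest, from 778 to 874 (median 810.5) with an SD of 0.06. DI21 was the least steady of the 8, with 662, 363 and 602 in Col-3 and 359, 458 and 346 in Col-0 and an SD of 0.41. Its value on Col-3 replicate 2 lay among those of Col-0. At the low end, COR27, a cold-regulated gene, ran from 12.9 to 30.2 (median 20.1) and AtLEA4-1, a late embryogenesis gene, from 1.0 to 11.9 (median 1.6).

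Small secreted peptides differed widely in signal. LCR68 and LCR69, which encode cysteine-rich peptides of the defensin type, gave 1862, 1195 and 1809 in Col-3 and 1234, 1361 and 1586 in Col-0 and 1965, 989.6 and 1734 in Col-3 and 1142, 1317 and 1344 in Col-0. For both genes Col-3 replicates 1 and 3 lay above the other 4 arrays. PDF2.1, a defensin, gave 251, 123 and 204 in Col-3 and 104, 259.7 and 228 in Col-0. Only these 3 of 12 defensin and LCR probe sets reached 100. RALF peptides signal through receptor kinases and slow cell expansion. RALFL32 ran from 532 to 856 (median 701), RALFL33 from 507 to 636 (median 545) and RALFL27 from 273 to 421 (median 364). No CLE peptide of 5 reached 100, and CLE44 and CLE41, which keep vascular stem cells dividing, were the brightest, from 68.4 to 98.1 (median 90.8) and from 62.1 to 119 (median 85.9). The calmodulin-like genes CML42 and CML43 ran from 328 to 431 (median 375) and from 206 to 250.0 (median 234).

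The auxin families differed in how many members reached 100. GH3 enzymes attach amino acids to auxin and other acids, and 3 of 5 reached 100. GH3.17 gave 726, 744 and 814 in Col-3 and 783, 526 and 619 in Col-0. WES1, another GH3 enzyme, ran from 234 to 311 (median 271), and GH3.3 from 87.0 to 199 (median 144). YUC enzymes carry out the last step of auxin synthesis, and none of 4 reached a mean of 100. YUC2 ran from 19.1 to 35.2 (median 23.4). Of the 7 Aux/IAA repressors in the gene table under such a symbol IAA18 was the only one at 100 or more, from 134 to 199.8 (median 159).

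Among transcription factors the bHLH probe sets were the brightest group, with 4 of 6 at 100 or more. All 6 are of genes known in the iron response, so they stand for a small part of the bHLH genes. bHLH115, ILR3 and bHLH104 belong to the group that turns on the iron deficiency response. Their signals were 814, 748 and 915 in Col-3 and 1092, 956 and 1104 in Col-0 for bHLH115, 345 to 512 (median 441) for ILR3 and 271 to 436 (median 354) for bHLH104. BHLH101, an iron-regulated target of that group, was low, from 15.6 to 42.5 (median 40.7). Of 22 bZIP probe sets 5 reached 100. BZIP53 led with 876 to 1306 (median 1034). BZIP60 and BZIP28, which respond to unfolded protein in the ER, ran from 222 to 453 (median 327) and from 253 to 303 (median 276), and bZIP19, a zinc sensor, from 249 to 283 (median 275). WRKY6, known in phosphate and senescence responses, ran from 135 to 257 (median 206).

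Genes of RNA processing and chromatin were mostly low. None of 13 organelle RNA processing genes and none of 9 chromatin remodelling probe sets reached 100, and CHR17 was the brightest of the chromatin genes, from 86.3 to 133 (median 90.4). RNA polymerase subunits reached 100 in 4 of 12, led by NRPB12 with 182 to 247 (median 206). The LSM genes, whose proteins form rings on RNA, did so in 4 of 6, led by LSM1A with 241 to 359 (median 325).

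Plastid-encoded genes covered a wide range of signals. Roots hold plastids without much photosynthesis, and these genes sit on the plastid's own chromosome. Of 33 photosynthesis genes of the plastid 14 reached 100. psbM, a small subunit of photosystem II, ran from 969 to 2437 (median 1711), atpB and atpE, subunits of the ATP synthase, from 1124 to 1793 (median 1528) and from 921 to 1331 (median 1141), and petB, of the cytochrome b6f complex, from 794 to 1076 (median 843). rbcL, the large subunit of Rubisco, had a mean under 100, with 87.1, 91.3 and 84.7 in Col-3 and 145, 67.5 and 96.3 in Col-0. Of 6 nuclear light-harvesting and photosystem genes none had a mean of 100. Of 10 plastid NDH genes ndhI was the only one at 100, from 217 to 489.7 (median 325).

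The circadian gene GI, which controls flowering time and clock rhythm, gave 202, 131 and 159.7 in Col-3 and 220.3, 151 and 236 in Col-0. STZ, a zinc finger gene that reacts quickly to handling and other stress, gave 68.8, 131 and 122 in Col-3 and 125, 158 and 80.7 in Col-0. It was lowest on Col-3 replicate 1 and highest on Col-0 replicate 2, and the stocks overlapped. The hour of harvest is not given in the sources used here.

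The spread over the 6 arrays fell as the signal grew. Probe sets with a mean signal under 10 had a median SD of 1.27 on the log2 scale, those from 50 to 100 one of 0.259, and those of 1000 or more one of 0.169. Spread was therefore described for the 6430 probe sets with a mean of at least 100. Genes were ranked by it among the 3193 of these with 1 gene, so the lists below leave out the others. The median SD of the 6430 was 0.202, which is a factor of 1.15, with a 5th percentile of 0.093 and a 95th of 0.401. Only 119 (1.85%) had an SD of 0.5 or more, and 446 (6.94%) differed 2-fold or more between the highest and the lowest array. Within the stocks, pooled over both, the median SD was 0.189.

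**Figure D4:**
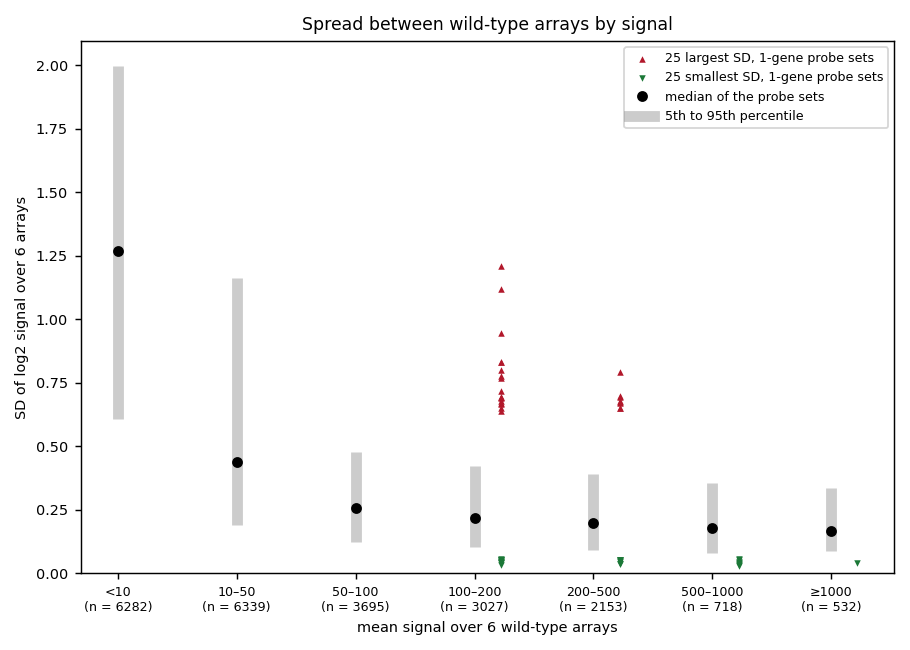
SD of log2 signal over the 6 wild-type arrays in 7 classes of mean signal, with the median as a black point, the 5th to 95th percentile as a grey bar and the number of probe sets under each class. Triangles mark the 25 genes of largest and of smallest SD. The medians fall from 1.27 under a signal of 10 to 0.169 at 1000 or more, and the triangles start at a mean signal of 100, the minimum for ranking.

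The 25 genes of smallest spread had SDs from 0.029 to 0.055, and the highest array was at most 1.12 times the lowest for each of them. AT1G54320 was the steadiest, with 679, 683 and 719 in Col-3 and 692, 689.8 and 689.8 in Col-0. Of the 25 genes 7 have a name. JAL22 of the ER body has been given above. ALATS, the enzyme that charges the transfer RNA of alanine, gave 649, 608 and 658 in Col-3 and 661, 630.1 and 624 in Col-0. PIA1, a protein phosphatase of the PP2C type, gave 698, 726 and 729.9 in Col-3 and 768, 753 and 703 in Col-0, and FACT, which joins caffeic acid to the fatty alcohols of suberin waxes, gave 382, 421 and 395 in Col-3 and 392, 398 and 382 in Col-0. SCPL49, VPS60.1 and SP1L3, a microtubule protein related to SPIRAL1, ran from 616 to 687 (median 639), from 183 to 196 (median 189) and from 255 to 280.0 (median 262). The SDs just inside and outside the edge of the list were 0.055 for AT3G02220 and 0.057 for AT5G02530. The list depended on the processing: median centring of the arrays kept 5 of the 25, and leaving out single arrays kept 12 to 16.

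Of 17 genes listed as references for quantitative PCR 8 have a probe set with 1 gene, 4 of them under a name or a code used as a name, and they differed in spread. AT5G46630, listed as the clathrin adaptor AP2M, gave 309.7, 347 and 293 in Col-3 and 366, 329 and 335 in Col-0 with an SD of 0.12. PEX4, also called UBC21, gave 330.4, 209.8 and 338 in Col-3 and 253, 386 and 269.8 in Col-0 with an SD of 0.32, which is above the median of probe sets at that level. Its values ranged from Col-3 replicate 2 at the low end to Col-0 replicate 2 at the high end. AT4G33380 and AT2G32170 had SDs of 0.36 and 0.28. The other 4, under locus codes, had SDs of 0.13 for AT4G34270, 0.19 for AT2G28390, 0.20 for AT5G15710 and 0.21 for AT4G26410. They were steadier than PEX4, AT4G33380 and AT2G32170, but not than AT5G46630. AT4G33380 and AT5G15710 had median signals of 78.5 and 53.5, and probe sets from 50 to 100 had a median SD of 0.259.

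The 25 genes of largest spread had SDs from 0.64 to 1.21, and the next, Fes1A, had 0.637. Only 7 of them have a symbol. They did not share 1 pattern. For 7 of the 25 the arrays of Col-3 and Col-0 did not overlap, and for the other 18 they did. Among all probe sets at this level the share without overlap was 14.4%. The SD over all 6 arrays grows with a difference between the stocks, so the ranking itself favours genes without overlap. These shares therefore cannot show whether the stocks differ more in the 25 genes. Each of the 6 arrays was the highest for at least 2 of the 25 genes and the lowest for at least 2.

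**Figure D5:**
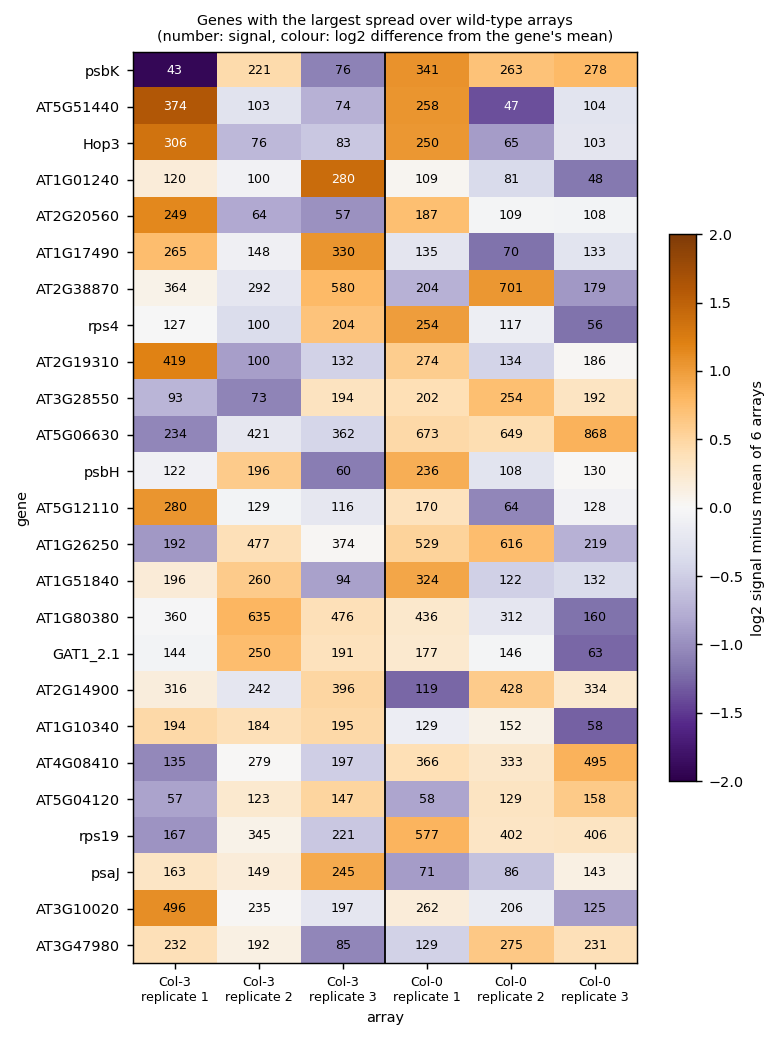
The 25 genes of largest SD over the wild-type arrays, with the signal written in each cell and the log2 difference from the gene's mean as colour (orange higher, purple lower), Col-3 arrays on the left and Col-0 arrays on the right. AT5G51440, Hop3, AT2G20560 and AT2G19310 are high on replicate 1 of both stocks, and psbK and rps19 are high on the Col-0 arrays.

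Several protein folding genes shared a pattern, although of the chaperone family only Hop3 was among the 25. Hop3 is a co-chaperone that links Hsp70 to Hsp90, and it gave 306, 75.7 and 82.7 in Col-3 and 249.8, 65.2 and 103 in Col-0, with an SD of 0.95. In both stocks the array numbered 1 was the highest. Hsp70-2, a cytosolic Hsp70, gave 307, 139 and 142 in Col-3 and 235, 140.1 and 143 in Col-0. SGT1A, a co-chaperone of Hsp90 in immunity, gave 285, 139.6 and 144 in Col-3 and 236, 120.0 and 137 in Col-0. Fes1A, which protects cytosolic Hsp70, gave 203, 96.3 and 61.3 in Col-3 and 127, 66.5 and 111 in Col-0, and Cpn60beta2, a chaperonin subunit of plastids, gave 194, 138 and 86.3 in Col-3 and 207, 81.4 and 116 in Col-0. Of the 10 chaperone and co-chaperone probe sets at 100 or more, 6 had Col-3 replicate 1 and Col-0 replicate 1 as their 2 highest arrays. This was so for 6.73% of all probe sets at this level. The sixth was ATERDJ2A, a co-chaperone of the ER, with 185, 150.3 and 150.3 in Col-3 and 162, 143 and 139 in Col-0. Other members did not share it: CRT1b, a calreticulin of the ER, gave 499.6, 417 and 437 in Col-3 and 525, 492 and 709.5 in Col-0, and Cpn60beta3 gave 176, 162 and 195 in Col-3 and 191, 156 and 179.5 in Col-0. The family had a median SD of 0.383 at this level. None of 6 heat shock genes listed has a named probe set. Of the 25 genes of largest spread 6 had the same 2 highest arrays, among them AT5G51440 with 374, 103 and 74.2 in Col-3 and 258, 47.3 and 104 in Col-0, AT2G20560 with 249, 64.0 and 57.3 in Col-3 and 187, 109 and 108 in Col-0 and AT2G19310 with 419, 99.7 and 132 in Col-3 and 274, 134 and 186 in Col-0. Across the 6430 probe sets as a whole, deviations of the arrays numbered 1 from their stock means correlated at r = -0.012. This value cannot show whether a small set of genes varied with the number. The hybridization controls were lowest on these arrays within each stock, at 7.82 and 8.33, and the part of such array properties in the pattern was not tested.

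Plastid-encoded genes supplied 5 of the 25. psbK, another small subunit of photosystem II, had the largest SD of all, with 42.9, 221 and 76.0 in Col-3 and 341, 263 and 278 in Col-0. rps19, a protein of the plastid ribosome, gave 167, 345 and 221 in Col-3 and 577, 402 and 406 in Col-0. Both were higher on every Col-0 array than on any Col-3 array. psaJ, of photosystem I, ran the other way, with 163, 149 and 245 in Col-3 and 70.7, 86.3 and 143 in Col-0. rps4 and psbH gave 127, 100.2 and 204 in Col-3 and 254, 117 and 55.8 in Col-0 and 122, 196 and 59.9 in Col-3 and 236, 108 and 130.3 in Col-0, with both stocks overlapping. Over the families, 11 of 14 plastid photosynthesis genes and 6 of 7 plastid ribosomal and polymerase genes at 100 or more had an SD above the median of 0.202, and their median SDs were 0.364 and 0.431. Of the 22 plastid-encoded probe sets at 100 or more in 3 families, 15 were highest on Col-0 replicate 1, which was the highest array for 21.6% of all probe sets at this level. Over all members, the mean log2 signal of the plastid photosynthesis genes was 6.65 on that array and from 5.57 to 5.97 on the others. That of the plastid ribosomal and polymerase genes was 6.59 there and from 5.50 to 6.13 elsewhere, and that of the NDH genes 5.22 there and from 3.75 to 4.47 elsewhere. Of the 5 genes above, psbK, rps19, rps4 and psbH were highest on Col-0 replicate 1, and psaJ was lowest on it.

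Col-0 replicate 3 was the lowest array for 7 of the 25 genes of largest spread, and for 21.5% of all probe sets at this level, so the share is near that of all. GAT1_2.1, a glutamine amidotransferase, gave 144, 250.0 and 191 in Col-3 and 177, 146 and 62.9 in Col-0. AT1G80380 and AT1G10340, with locus codes alone, gave 359.7, 635 and 476 in Col-3 and 436, 312 and 160.3 in Col-0 and 194, 184 and 195 in Col-3 and 129, 152 and 57.8 in Col-0. These 3 genes were lowest on that array.

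Across families, spread followed function only in part. Among families with at least 5 probe sets at 100 or more, the smallest median SDs were those of the VPS genes at 0.138, the late embryogenesis and cold-regulated genes at 0.140 and the jacalin and ER body genes at 0.146. The largest were those of the plastid ribosomal and polymerase genes, the chaperones and the plastid photosynthesis genes, followed by the glutathione transferases at 0.291 and the peroxidases at 0.284. Within the bright ER body family NAI1 was the exception with an SD of 0.32. XTH18 and XTH19 had SDs of 0.37 and 0.41.

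The arrays of the altered lines took no part in choosing these genes. Of the 40 brightest probe sets of the wild type, 36 were among the 40 brightest in ara1OX and 34 in ara1/2mut. Mean log2 signals of the wild type correlated with those of ara1OX at r = 0.967 and with those of ara1/2mut at 0.976 across probe sets. These are values between means of several arrays, not between single arrays. Single wild-type arrays had a mean r with the other wild-type arrays of 0.907 to 0.924. Single ara1OX and ara1/2mut arrays had 0.866 to 0.921 and 0.9 to 0.923 with them. The wild-type list of largest spread was also a list of large spread in the altered lines. The 25 genes of largest wild-type spread had a median SD of 0.638 over the 3 ara1OX arrays, where all 6430 probe sets had 0.206, and of 0.630 over the 3 ara1/2mut arrays, where all had 0.232. In ara1OX 20 of the 25 and in ara1/2mut 24 of the 25 lay above that median. The 25 genes of smallest spread had median SDs of 0.042 over the Col-3 and 0.046 over the Col-0 arrays, which took part in choosing them, and of 0.180 in ara1OX and 0.176 in ara1/2mut. In each altered line 9 of the 25 lay above the median of all, and the medians of the list there were closer to those of all probe sets than to its own in the wild type.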

How the data were processed

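RNA of each sample was read on 1 ATH1 array. The deposited values are signal intensities on a linear scale, computed by the authors with MAS5 per the submitters' processing notes; neither its version nor its target is given in the sources used here. Each of the 12 arrays had a trimmed mean of 100.01 after 2% of the values were left out at each end, so a shift of all transcripts at once cannot be seen. Of 22810 probe sets, 64 controls were left out. Signals were analysed as log2 without further normalization, and means are geometric means over the 6 arrays. Spread was ranked among probe sets with 1 gene and a mean signal of at least 100. The platform's gene table gives 1 gene for 13513 probe sets and several for 503, and 8730 others are unnamed here; 13436 were matched to 13286 genes of TAIR10.1, which served for names alone.

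The values described are the 40 brightest genes, the 25 of largest and of smallest SD, and from each family or list up to 5 of the brightest, the largest and the smallest SD, with every measured member of lists of up to 25; the text gives a selection of these 670 probe sets. A further gene family is not reported here. Members, families and lists were chosen with earlier results of these data known. Lists came from general knowledge, and families were formed after the wording of the gene table was seen. No comparison was tested. Precision is limited by how few arrays there are. The calculation of spread was tested on simulated data. Alternatives were quantile normalization, median centring, a pseudocount of 16, probe sets without suffix s or x, each array left out, other signal minimums and the SD within stocks. Python 3.11.15, numpy 2.4.6, pandas 2.3.3 and matplotlib 3.10.9 were used.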

Additional observations from a re-analysis of the deposited data

Results flagged for a closer look

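Mean log2 signals of families and other array measures, 47 in all, were screened for an array that stood far from the other 5 by Dixon's ratio. In 3 of the 47 an array stood apart, which is near the 1 in 20 that chance alone gives. The mean log2 signal of the 12 citrate cycle and acetyl-CoA probe sets at 100 or more was 9.40 on Col-0 replicate 3, where the other arrays had 9.16 to 9.24. The mean of the 5 probe sets of the glycosyl hydrolases of group 9 at 100 or more was 7.92 on the same array, where the others had 7.59 to 7.66. Over all members of each family that array lay within the range of the others. It had 7.38 for the citrate cycle and acetyl-CoA genes, where the others had 7.24 to 7.67. For the glycosyl hydrolases it had 4.47, where the others had 3.8 to 5.1. The mean of all 33 plastid-encoded photosynthesis probe sets was 6.65 on Col-0 replicate 1, where the others had 5.57 to 5.97. The means over all members were screened for the 3 plastid-encoded families alone, after their values had been seen.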

How the results depend on the processing

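With a minimum signal of 50 or 200 in place of 100, the number of bright probe sets was 10125 or 3403, in place of 6430. The median SD was 0.221 with a minimum of 50 and 0.368 with none, in place of 0.202. Under the other alternatives the number of bright probe sets ran from 6148 to 7354 and the median SD from 0.189 to 0.215. The number of bright families was 14 under quantile normalization, median centring, the pseudocount and without suffixes s or x. Leaving out each array in turn gave 6412 to 6466 bright probe sets, a median SD of 0.191 to 0.206 and 13 to 15 bright families. Of the 40 brightest genes 38 to 39 were shared when 1 array was left out. Of the 25 genes of largest spread 15 were shared without Col-3 replicate 1, 16 with the SD within stocks, 12 and 8 with minimums of 50 and 200, and 0 with no minimum. Of the 25 of smallest spread 16 were shared under quantile normalization, 5 under median centring and 11 with the SD within stocks. A pseudocount of 16 moved the mean of 348 of 670 described probe sets by more than their SD, and no other alternative moved any. No paired analysis was possible because the levels and spreads come from no test. Across the 6430 probe sets, deviations of arrays with the same number correlated at -0.012, -0.084 and 0.085. Values over so many probe sets cannot show whether a small set of genes varied with the number.

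Dim probe sets limit what can be read: those with a mean under 10 had a median SD of 1.27. Signals near or under 15.8 cannot be told from the control level. Of the 6430 bright probe sets 3080 are unnamed here and 575 have a symbol or readable name, so the families cover a small share of the transcripts.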
